A study of Mus musculus with 9 samples.

Results

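Oxidative phosphorylation (OXPHOS) genes were followed across 3 stages of the reprogramming of mouse fibroblasts. The members were all genes whose symbols begin with Nduf, Sdha, Sdhb, Sdhc, Sdhd, Uqcr, Cox4, Cox5, Cox6, Cox7, Cox8 or Atp5, which gave 93 of the 19937 genes named on the array. By prefix, 43 belong to complex I (Nduf), 8 to complex II (Sdh), 8 to complex III (Uqcr), 17 to complex IV (Cox) and 17 to complex V (Atp5). The prefixes reach beyond the subunits of most tissues, of which there were 73. They also take in 11 assembly factors, 7 tissue-restricted isoforms of complex IV, Ndufa4l2, a paralog of Ndufa4, and Cox7a2l, a protein that joins complexes III and IV into supercomplexes. Ndufa4 is counted with complex I by its name, although its protein is now placed in complex IV. Each gene was read from 1 array row, the row that carries its symbol alone and has the highest mean over the 9 arrays. The subunits encoded by mitochondrial DNA were not analysed here.

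In OXPHOS, complexes I and II take electrons from NADH and succinate and pass them through ubiquinone to complex III, which hands them by way of cytochrome c to complex IV and oxygen. Complexes I, III and IV pump protons across the inner mitochondrial membrane, and complex V, the ATP synthase, makes ATP as protons flow back. Pluripotent cells are known for relying more on glycolysis than fibroblasts do, and the exchange of one energy route for the other is a known early event of reprogramming.

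All cells carried the strain label OG2-GFP/Rosa26-M2rtTA, in which M2rtTA is the doxycycline-responsive activator and GFP reports the pluripotent state. The fibroblasts were grown from TSKM-iPS mice, made with iPS cells that hold inducible Tet1, Sox2, Klf4 and c-Myc, and were taken at passage 4 without doxycycline. TSKM-3D denotes cells of the same kind at passage 4 after 3 days of doxycycline, and iPS denotes 1 line at passages 10 to 15 that came out of this secondary system. Each of the 3 groups had 3 arrays. Doxycycline came with a new medium, an embryonic stem cell medium that contains LIF, so TSKM-3D and fibroblast arrays differ in both respects. Feeders of embryonic fibroblasts, treated with mitomycin C, carried the iPS cells and were taken out before collection by a short plating step. Whether arrays of 1 group stand for separate cultures is not stated. The p-values therefore set a difference against the scatter of these arrays, which can be technical.

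Several facts of the whole series bear on every result below. Array values were closest within groups, with Pearson correlations across genes, which are not independent replicates, of at least 0.991 within a group and at most 0.955 between groups. The cell type label of the third fibroblast array speaks of cells induced for 3 days. Its title, source and passage speak of fibroblasts, and it was kept with the fibroblasts, with which it correlated at 0.998. Of the introduced factors, Sox2 and Myc rose in TSKM-3D (log2 differences 1.39 ± 0.09 and 1.60 ± 0.08), Klf4 differed by 0.04 ± 0.09, and Tet1 went against the TSKM-3D label by falling by 1.13 ± 0.07. A row does not separate an introduced copy from the cell's own transcript. All 10 pluripotency markers were higher in iPS than in TSKM-3D arrays, and all 10 fibroblast markers were lower in iPS than in fibroblast arrays. In TSKM-3D against fibroblasts, 3 of the 10 pluripotency markers were higher and 0 lower. Of the 10 fibroblast markers, 3 were higher and 6 lower there, from Twist1 at 1.24 to Lum at -5.51. Macrophage markers moved with the TSKM-3D comparison: 8 of 9 were lower, and their median log2 level was 5.502 to 5.97 on TSKM-3D arrays, against 7.12 to 7.32 on fibroblast arrays and 5.87 to 6.01 on iPS arrays, where 4 of 9 were higher than in TSKM-3D. Smooth muscle markers were lower in 2 of 4 cases in TSKM-3D than in fibroblasts and in 3 of 4 cases in iPS than in TSKM-3D, and 1 of 4 adipocyte markers, Fabp4, was lower in both comparisons. The part of these other cells in the results was not tested, and in such bulk samples fewer cells of a type and less RNA per cell cannot be told apart.

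After 3 days of induction the OXPHOS genes moved in both directions. In TSKM-3D against fibroblast arrays, 29 of the 93 genes rose and 32 fell, and 32 did neither. Here and below, rose and fell mean a limma Benjamini-Hochberg adjusted p under 0.05, with the adjustment over all 19937 genes. These are 31.2% and 34.4% of the members, against 19.2% and 25.3% of all genes. A change of at least 2-fold was reached by 6 members upwards, 6.45% against 3.25% of all genes, and by 8 downwards, 8.6% against 7.58%. The arrays of both groups did not overlap for 71 members, 76.3% against 53.1% of all genes. Without the third fibroblast array 27 members rose and 32 fell. With that array placed with TSKM-3D, as its cell type label reads, 0 members rose and 0 fell by limma. Over all genes the counts were 0 and 0 as well, and 5359 genes had an unadjusted p under 0.05. The median log2 difference of the members was 0.09, beside 0.05 over all genes, while their median absolute difference was 0.41, beside 0.24 over all genes. These values depend on how bright a gene is: 90 of the members were among the 13157 genes with a highest group mean of at least 6, whose median absolute difference was 0.38 and of which 23.6% rose and 36.7% fell. At 2-fold, 4.8% of these bright genes rose and 11.3% fell. Against them the members' share of rises was larger and that of falls smaller, also at 2-fold. Arrays without overlap were not counted among the bright genes. Of the same bright genes, 30.5% rose and 32.7% fell in iPS against TSKM-3D, and 31.2% rose and 41.8% fell in iPS against fibroblasts. At 2-fold these were 9.52% and 12.8%, and 11.1% and 20.7%.

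Between TSKM-3D and iPS 2 members changed by 2-fold, Cox7a1 and Ndufb8. In iPS against TSKM-3D arrays 24 members rose (25.8%, against 22.3% of all genes) and 16 fell (17.2%, against 23.2%). Of these, 2 members passed 2-fold upwards (2.15%, against 6.48%) and 0 downwards (0%, against 8.57%) by limma, while 21 members were lower at an unadjusted p under 0.05, Uqcrh furthest at -0.65. The arrays did not overlap for 45 members (48.4%, against 49.5%). In iPS against fibroblast arrays 34 members rose (36.6%, against 25.5%) and 28 fell (30.1%, against 29.1%). At 2-fold these were 7 upwards (7.53%, against 7.63%) and 8 downwards (8.6%, against 13.8%), and 69 members had arrays that did not overlap (74.2%, against 65%). Against the bright genes, the members' shares of rises and falls in iPS against TSKM-3D were both the smaller, and in iPS against fibroblasts the share of rises was larger and that of falls smaller. At 2-fold the members' shares were the smaller in both directions of these comparisons. These shares are descriptions, and no test of members against other genes was made. The comparisons share arrays, so their counts are not independent of each other.

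Where the arrays were put on another common scale, the balance of higher and lower calls shifted. With the array medians set equal, the median of all genes moved to -0.127 in iPS against TSKM-3D and to -0.123 in iPS against fibroblasts. The members then split 15 higher and 26 lower in iPS against TSKM-3D, and 19 higher and 38 lower in iPS against fibroblasts. Over all genes the splits were 3548 higher and 6447 lower, and 3512 higher and 7215 lower. On the deposited scale they were 4453 and 4635, and 5091 and 5792. With quantile normalization the TSKM-3D split against fibroblasts was 39 higher and 28 lower. Over all genes it was 4073 higher and 4714 lower, beside 3832 and 5054 on the deposited scale. The values below are on the deposited scale, as log2 expression levels for single arrays and log2 differences between groups. Levels of different genes come from different probes and were not set against each other.

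The calls are given here by complex. In TSKM-3D against fibroblasts, where 19.2% of all genes rose and 25.3% fell, the counts of rises and falls were 14 and 16 of 43 genes in complex I, 2 and 3 of 8 in complex II, 2 and 4 of 8 in complex III, 5 and 4 of 17 in complex IV, and 6 and 5 of 17 in complex V. In iPS against TSKM-3D, where 22.3% of all genes rose and 23.2% fell, they were 10 and 10 in complex I, 1 and 3 in complex II, 4 and 1 in complex III, 6 and 0 in complex IV, and 3 and 2 in complex V. The count of 0 falls in complex IV by limma was also 0 at an unadjusted p under 0.05. In iPS against fibroblasts, where 25.5% of all genes rose and 29.1% fell, they were 13 and 13, 2 and 3, 3 and 3, 7 and 4, and 9 and 5 for complexes I to V. The medians of complexes III, IV and V in iPS against TSKM-3D, at 0.07, 0.07 and 0.10, changed sign with array medians set equal, to -0.0466, -0.0428 and -0.016. Whether complexes differ from each other was not tested. In TSKM-3D, the counts for parts of a complex below are to be read beside 19.2% and 25.3% of all genes. Among the bright genes these shares were 23.6% and 36.7%.

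**Figure D1:**
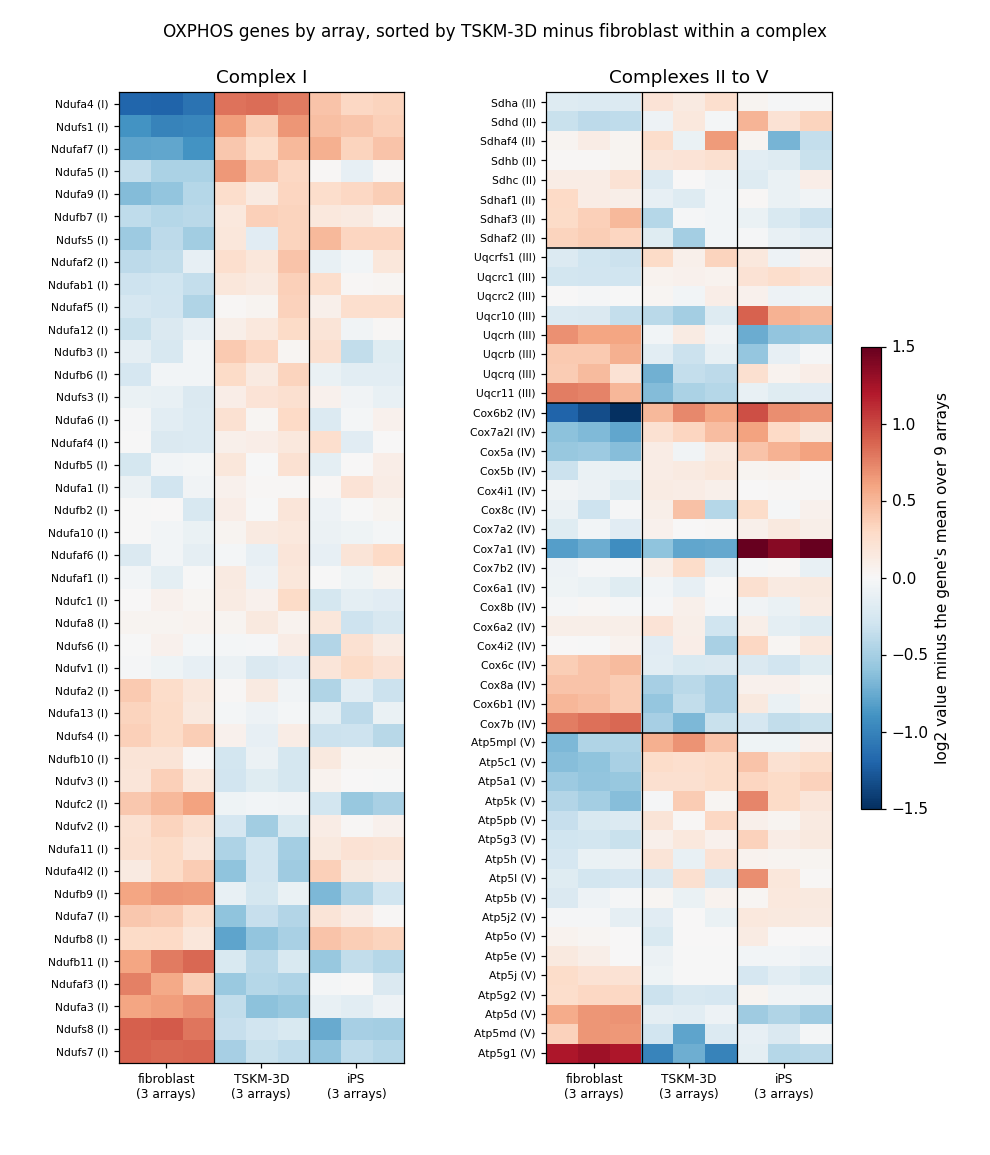
Log2 value of each of the 93 OXPHOS genes on each of the 9 arrays, minus that gene's own mean over the arrays (red above, blue below), by complex and sorted by the TSKM-3D minus fibroblast difference. At both ends of complexes I, IV and V the 3 fibroblast arrays stand opposite the TSKM-3D arrays, which follows from the sorting. The Cox7a1 row is high only on the 3 iPS arrays.

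**Figure D2:**
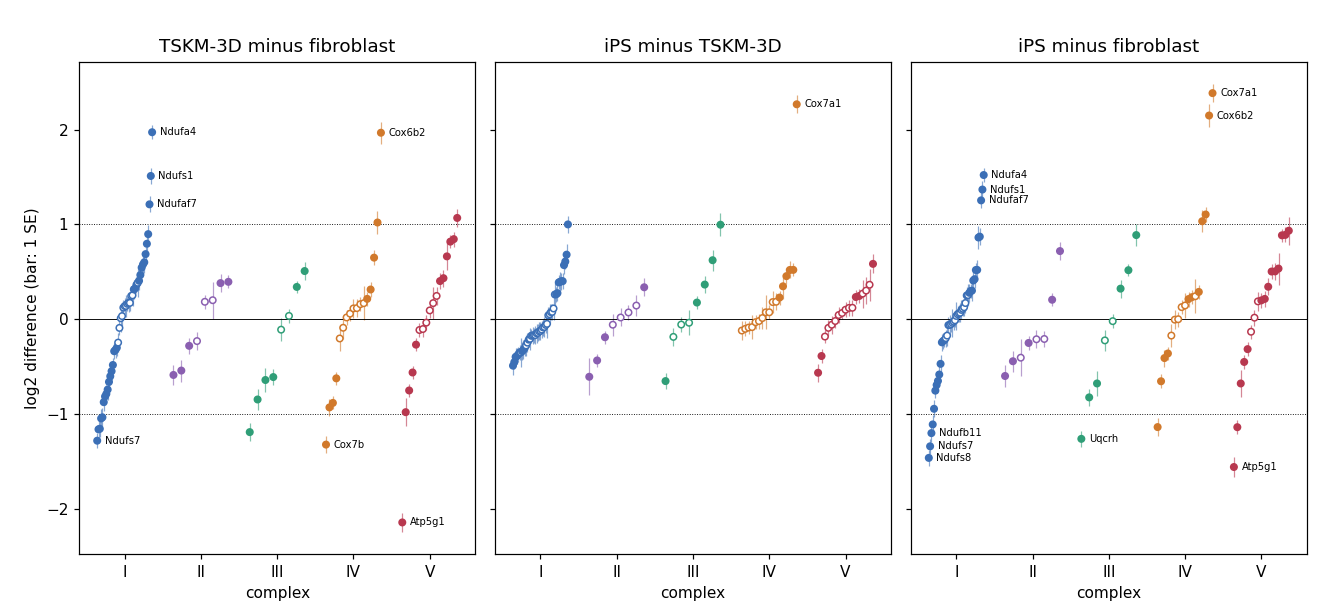
Log2 difference of each OXPHOS gene in the 3 comparisons, by complex, with 1 standard error as a bar; filled points passed an adjusted p of 0.05 (limma), open points did not, and dotted lines mark 2-fold. The TSKM-3D minus fibroblast differences run from -2.14 for Atp5g1 to 1.97 for Ndufa4, and the iPS minus TSKM-3D differences stay within 2-fold except for Cox7a1 and Ndufb8.

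The core of complex I was divided. Of its 6 core members measured, 2 rose, 3 fell and 1 did neither in TSKM-3D against fibroblasts. Over all genes 19.2% rose and 25.3% fell there. Ndufs1, the large iron-sulphur subunit of the NADH-oxidising module, read 9.15, 9.04 and 9.06 on the fibroblast arrays, 10.67, 10.42 and 10.70 on the TSKM-3D arrays and 10.49, 10.46 and 10.41 on the iPS arrays. All TSKM-3D and iPS arrays were above all fibroblast arrays, by 1.51 ± 0.09 in TSKM-3D (± SE, with 3 arrays in each group; limma adjusted p = 8.87e-08) and by 1.37 ± 0.09 in iPS. Ndufs7 and Ndufs8, iron-sulphur subunits next to the ubiquinone site, went the other way. Ndufs7 read 11.74, 11.72 and 11.73 on the fibroblast arrays, 10.36, 10.52 and 10.47 on the TSKM-3D arrays and 10.26, 10.48 and 10.43 on the iPS arrays. It fell in TSKM-3D (-1.28 ± 0.08; adjusted p = 1.66e-07), differed by little between iPS and TSKM-3D (-0.06 ± 0.08; adjusted p = 0.609), and its fibroblast arrays overlapped neither group. Ndufs8 read 10.57, 10.58 and 10.47 on the fibroblast arrays, 9.32, 9.38 and 9.44 on the TSKM-3D arrays and 8.91, 9.17 and 9.16 on the iPS arrays. A fall in TSKM-3D (-1.16 ± 0.09; adjusted p = 6.24e-07) was followed by another in iPS against TSKM-3D (-0.30 ± 0.09; adjusted p = 0.0136), with no overlap among the groups. Both subunits thus lay over 2-fold below fibroblasts in iPS, at -1.34 and -1.46.

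The other core members moved less. Ndufv1, which binds the flavin that takes electrons from NADH, read 10.13, 10.09 and 10.03 on the fibroblast arrays, 10.07, 9.93 and 9.98 on the TSKM-3D arrays and 10.34, 10.44 and 10.37 on the iPS arrays. Its TSKM-3D and fibroblast arrays overlapped (-0.09 ± 0.07; adjusted p = 0.349), and it rose in iPS against TSKM-3D (0.39 ± 0.07; adjusted p = 0.000875). Ndufv2, its iron-sulphur partner, read 11.26, 11.37 and 11.28 on the fibroblast arrays, 10.79, 10.52 and 10.81 on the TSKM-3D arrays and 11.15, 11.06 and 11.10 on the iPS arrays. Ndufv2 fell in TSKM-3D (-0.60 ± 0.09; adjusted p = 0.00016) and rose in iPS against TSKM-3D (0.40 ± 0.09; adjusted p = 0.00267). Ndufs3, a scaffold of the ubiquinone module, rose in TSKM-3D on the row used (0.33 ± 0.08; adjusted p = 0.00553), whereas its dimmer second row differed by -0.47 (adjusted p = 0.0184 over all rows). The mean of both rows gave -0.07 (adjusted p = 0.52), so the direction of Ndufs3 depends on the row.

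**Figure D3:**
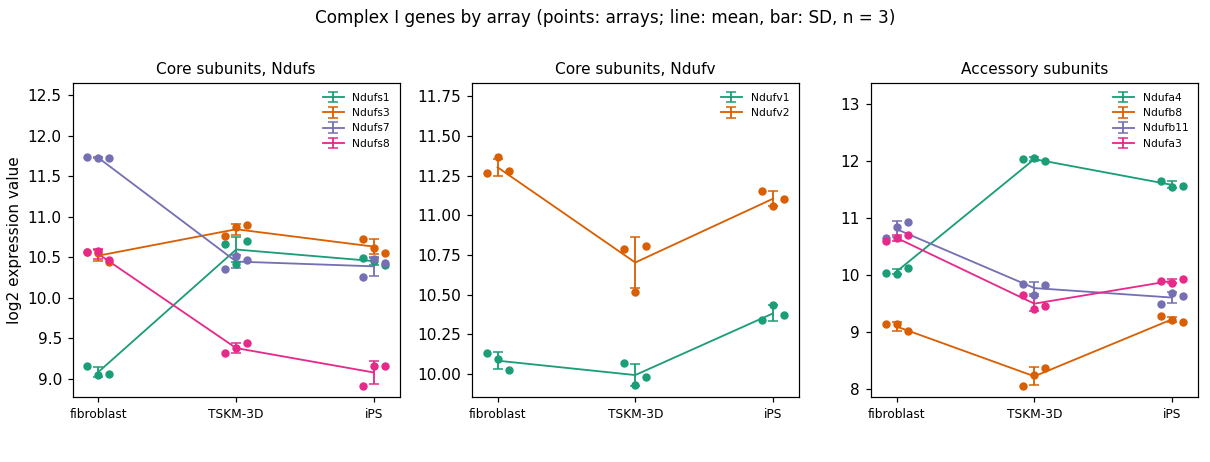
Log2 values of 10 complex I genes on each array (points), with the mean and SD of each group (line and bar, n = 3); the height of different genes cannot be compared. In the left panel Ndufs1 is higher, and Ndufs7 and Ndufs8 are lower, on all TSKM-3D and iPS arrays than on all fibroblast arrays.

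Accessory subunits of complex I, which surround the core, rose in 9 cases, fell in 11 and did neither in 9 of 29 in TSKM-3D against fibroblasts. The shares of rises and falls over all genes were 19.2% and 25.3%. Ndufa4 had the largest rise of all 93 members. It read 10.04, 10.02 and 10.12 on the fibroblast arrays, 12.03, 12.06 and 11.999 on the TSKM-3D arrays and 11.65, 11.53 and 11.55 on the iPS arrays. The TSKM-3D arrays were the highest and the fibroblast arrays the lowest, with differences of 1.97 ± 0.07 for TSKM-3D against fibroblasts (adjusted p = 3e-09), -0.45 ± 0.07 for iPS against TSKM-3D and 1.52 ± 0.07 for iPS against fibroblasts. Next among the rises were Ndufa5, which sits on the peripheral arm, at 0.90 ± 0.10, Ndufa9, which binds a nicotinamide nucleotide near the ubiquinone site, at 0.80 ± 0.09, and Ndufb7 at 0.69 ± 0.08. Ndufa5 read 7.46, 7.34 and 7.35 on the fibroblast arrays, 8.47, 8.25 and 8.13 on the TSKM-3D arrays and 7.84, 7.70 and 7.84 on the iPS arrays. Its iPS arrays lay between those of the other groups, and it had the largest fall of complex I in iPS against TSKM-3D (-0.49 ± 0.10; adjusted p = 0.00113).

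Several of the accessory falls were in subunits of the membrane arm. Ndufa3 read 10.60, 10.64 and 10.70 on the fibroblast arrays, 9.64, 9.39 and 9.45 on the TSKM-3D arrays and 9.90, 9.86 and 9.93 on the iPS arrays. It was lowest on the TSKM-3D arrays (-1.15 ± 0.08; adjusted p = 4.06e-07) and in between on the iPS arrays (0.40 ± 0.08 against TSKM-3D), with no overlap. Ndufb11, an X-linked membrane subunit, read 10.65, 10.84 and 10.92 on the fibroblast arrays, 9.83, 9.65 and 9.82 on the TSKM-3D arrays and 9.49, 9.69 and 9.63 on the iPS arrays. Ndufb11 fell in TSKM-3D (-1.03 ± 0.10; adjusted p = 3.42e-06), and the TSKM-3D and iPS arrays overlapped each other (-0.17 ± 0.10; adjusted p = 0.191). Ndufb9 read 10.28, 10.34 and 10.33 on the fibroblast arrays, 9.58, 9.43 and 9.59 on the TSKM-3D arrays and 9.01, 9.23 and 9.39 on the iPS arrays. Ndufb9 fell in TSKM-3D (-0.79 ± 0.10) and stood at -1.11 ± 0.10 in iPS against fibroblasts (adjusted p = 1.19e-06). The further step in iPS against TSKM-3D (-0.32 ± 0.10; adjusted p = 0.0181) did not pass without TSKM-3D replicate 1 or 3 or without iPS replicate 1 (adjusted p = 0.0618, 0.0514 and 0.0659). Ndufc2 fell in both steps too, by differences of -0.55 and -0.40. So did Ndufs4, a peripheral-arm subunit whose loss models Leigh syndrome in mice, with -0.32 and -0.37, the first of which did not pass under quantile normalization (-0.18, adjusted p = 0.054).

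Other accessory genes were lowest at day 3. Ndufb8 read 9.13, 9.14 and 9.01 on the fibroblast arrays, 8.05, 8.25 and 8.36 on the TSKM-3D arrays and 9.27, 9.21 and 9.17 on the iPS arrays. A fall in TSKM-3D (-0.87 ± 0.09; adjusted p = 8.47e-06) was followed by a rise in iPS against TSKM-3D (1.00 ± 0.09; adjusted p = 1.99e-06). That rise was at the 2-fold line, and under it when TSKM-3D replicate 1 (0.916) or iPS replicate 1 (0.975) was left out. Its iPS and fibroblast levels differed by 0.13 ± 0.09 (adjusted p = 0.266). Ndufa11, Ndufa7 and Ndufb10 also fell in TSKM-3D (-0.66, -0.81 and -0.34) and rose in iPS against TSKM-3D (0.61, 0.57 and 0.28). The last of these, for Ndufb10, did not pass with array medians set equal (0.16, adjusted p = 0.138) or without TSKM-3D replicate 1 or 3 or iPS replicate 1. Ndufa4l2, the Ndufa4 paralog that is a known hypoxia-inducible gene, read 6.94, 7.09 and 7.19 on the fibroblast arrays, 6.21, 6.53 and 6.27 on the TSKM-3D arrays and 7.17, 6.96 and 6.93 on the iPS arrays. It was lowest on the TSKM-3D arrays (-0.74 ± 0.11 against fibroblasts; 0.68 ± 0.11 for iPS against TSKM-3D), and the iPS and fibroblast arrays overlapped. Accessory genes that passed in none of the 3 comparisons were Ndufa8, Ndufa10, Ndufb2, Ndufb3, Ndufb5 and Ndufs6.

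Of the 7 assembly factors of complex I, 3 rose, 1 fell and 3 did neither in TSKM-3D, where 19.2% of all genes rose and 25.3% fell. Ndufaf7, which methylates an arginine of a core subunit, read 7.45, 7.46 and 7.34 on the fibroblast arrays, 8.64, 8.51 and 8.72 on the TSKM-3D arrays and 8.77, 8.58 and 8.66 on the iPS arrays. All TSKM-3D arrays (1.21 ± 0.09; adjusted p = 3.71e-07) and all iPS arrays (1.25 ± 0.09; adjusted p = 1.14e-07) were above the fibroblast arrays. Ndufaf2 and Ndufaf5 rose in TSKM-3D by 0.58 and 0.47. Ndufaf3, a factor of early assembly, read 8.58, 8.40 and 8.20 on the fibroblast arrays, 7.27, 7.40 and 7.37 on the TSKM-3D arrays and 7.80, 7.82 and 7.61 on the iPS arrays. Ndufaf3 fell in TSKM-3D (-1.05 ± 0.10; adjusted p = 6.3e-06) and rose in part in iPS (0.40 ± 0.10 against TSKM-3D; adjusted p = 0.00783). Ndufaf4, the partner of Ndufaf3, differed by 0.25 ± 0.11 in TSKM-3D (adjusted p = 0.0813), and Ndufaf1 and Ndufaf6 passed in no comparison.

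In complex II, succinate dehydrogenase, no member reached 2-fold in any comparison. Of its 4 subunits, 2 rose and 2 did neither in TSKM-3D. Sdha, the flavoprotein that oxidises succinate, read 11.08, 11.07 and 11.07 on the fibroblast arrays, 11.48, 11.40 and 11.52 on the TSKM-3D arrays and 11.32, 11.25 and 11.26 on the iPS arrays. It was highest on the TSKM-3D arrays (0.40 ± 0.07 against fibroblasts; adjusted p = 0.000579) and in between on the iPS arrays. Sdhb, the iron-sulphur subunit, read 9.69, 9.69 and 9.71 on the fibroblast arrays, 9.85, 9.88 and 9.91 on the TSKM-3D arrays and 9.52, 9.48 and 9.34 on the iPS arrays. It differed by 0.18 ± 0.07 in TSKM-3D (adjusted p = 0.0618) and fell in iPS against TSKM-3D (-0.43 ± 0.07; adjusted p = 0.000368). Of the membrane anchors, Sdhc read 9.57, 9.57 and 9.68 on the fibroblast arrays, 9.25, 9.47 and 9.41 on the TSKM-3D arrays and 9.27, 9.36 and 9.56 on the iPS arrays. Its differences, -0.23 ± 0.09 in TSKM-3D and 0.02 ± 0.09 in iPS against TSKM-3D, did not pass. Sdhd read 9.71, 9.66 and 9.67 on the fibroblast arrays, 9.97, 10.20 and 10.01 on the TSKM-3D arrays and 10.55, 10.27 and 10.38 on the iPS arrays. It rose in TSKM-3D (0.38 ± 0.09; adjusted p = 0.00561) and again in iPS against TSKM-3D (0.34 ± 0.09; adjusted p = 0.0106), with no overlap among the groups, although the second rise did not pass with array medians set equal (0.22, adjusted p = 0.0583). Among the assembly factors, Sdhaf1, Sdhaf2 and Sdhaf3 fell in TSKM-3D (-0.28, -0.59 and -0.54), and Sdhaf4 differed by 0.20 ± 0.19 (adjusted p = 0.433). In iPS against TSKM-3D, Sdhaf4 differed by -0.61 ± 0.19 (adjusted p = 0.023), but its arrays overlapped and the mean of its rows gave -0.30 (adjusted p = 0.0608). That call was also lost without TSKM-3D replicate 1 or 3 or iPS replicate 2 or 3. The fall of Sdhaf1 in TSKM-3D was lost under quantile normalization (-0.13, adjusted p = 0.19) and without fibroblast replicate 1. Sdhaf2 read 9.11, 9.15 and 9.10 on the fibroblast arrays, 8.59, 8.26 and 8.74 on the TSKM-3D arrays and 8.76, 8.66 and 8.61 on the iPS arrays. It attaches the flavin to Sdha, and all its fibroblast arrays were above the TSKM-3D and iPS arrays. Sdhaf3 read 7.33, 7.40 and 7.53 on the fibroblast arrays, 6.61, 7.03 and 6.999 on the TSKM-3D arrays and 6.94, 6.81 and 6.71 on the iPS arrays. This factor helps the iron-sulphur subunit mature, and its difference was -0.60 ± 0.12 in iPS against fibroblasts (adjusted p = 0.000871).

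Among the Uqcr genes of complex III the falls in TSKM-3D were in small subunits without redox centres, and Cyc1, the haem-bearing cytochrome c1 outside these symbols, fell as well (-0.39 ± 0.12). Of the 8 Uqcr genes, 2 rose, 4 fell and 2 did neither in TSKM-3D, and the median difference was -0.36. Uqcrfs1, the Rieske iron-sulphur protein, read 8.24, 8.13 and 8.11 on the fibroblast arrays, 8.72, 8.51 and 8.77 on the TSKM-3D arrays and 8.59, 8.35 and 8.50 on the iPS arrays. The gene rose in TSKM-3D (0.51 ± 0.09; adjusted p = 0.000836), with no overlap with the fibroblast arrays. The core protein Uqcrc1 rose in TSKM-3D by 0.34 ± 0.07. Its difference in iPS against TSKM-3D, 0.18 ± 0.07 (adjusted p = 0.0478), did not pass with array medians set equal (0.06, adjusted p = 0.568), under quantile normalization (adjusted p = 0.139), with a replicate block (adjusted p = 0.092) or without any 1 array other than TSKM-3D replicate 2. Its partner Uqcrc2 differed by 0.04 ± 0.07 and -0.06 ± 0.07. Among small subunits, Uqcr11 read 9.44, 9.41 and 9.17 on the fibroblast arrays, 8.02, 8.19 and 8.24 on the TSKM-3D arrays and 8.56, 8.49 and 8.51 on the iPS arrays. It fell over 2-fold in TSKM-3D (-1.19 ± 0.09; adjusted p = 9e-07), and its rise in iPS against TSKM-3D (0.37 ± 0.09; adjusted p = 0.00646) did not pass with array medians set equal (0.25, adjusted p = 0.0575). Uqcrq, which touches cytochrome b, read 9.85, 9.94 and 9.69 on the fibroblast arrays, 8.75, 9.11 and 9.09 on the TSKM-3D arrays and 9.71, 9.53 and 9.58 on the iPS arrays. It was lowest on the TSKM-3D arrays (-0.85 ± 0.11 against fibroblasts) and rose in iPS against TSKM-3D (0.62 ± 0.11; adjusted p = 0.000506).

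Uqcrh and Uqcr10 followed different courses. Uqcrh, the acidic hinge protein that helps cytochrome c meet cytochrome c1, read 10.89, 10.80 and 10.80 on the fibroblast arrays, 10.17, 10.34 and 10.16 on the TSKM-3D arrays and 9.46, 9.61 and 9.64 on the iPS arrays. It fell in both steps (-0.61 ± 0.08 and -0.65 ± 0.08) and stood at -1.26 ± 0.08 in iPS against fibroblasts (adjusted p = 8.07e-08), with no overlap among the groups. Uqcr10, a small subunit beside the Rieske protein, read 9.01, 9.01 and 8.86 on the fibroblast arrays, 8.82, 8.71 and 9.02 on the TSKM-3D arrays and 10.11, 9.74 and 9.70 on the iPS arrays. Its TSKM-3D and fibroblast arrays overlapped (-0.11 ± 0.12; adjusted p = 0.494), and it rose in iPS against TSKM-3D by 0.997 (SE 0.12; adjusted p = 2.39e-05), just short of 2-fold. Uqcrb fell in TSKM-3D (-0.64 ± 0.13) and lay lower in iPS (-0.68 ± 0.13 against fibroblasts). Its other 2 rows differed by 0.04 and -0.34 in TSKM-3D (adjusted p = 0.776 and 0.246 over all rows), and the mean of its rows by -0.31, which did not pass (adjusted p = 0.0628).

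Complex IV has both common and tissue-restricted subunit genes. Of the 9 subunits of most tissues, 3 rose, 4 fell and 2 did neither in TSKM-3D, and of the 7 restricted isoforms 1 rose and 6 did neither. Over all genes 19.2% rose and 25.3% fell. Cox5a, a subunit on the matrix side, read 9.81, 9.83 and 9.74 on the fibroblast arrays, 10.49, 10.32 and 10.52 on the TSKM-3D arrays and 10.81, 10.90 and 10.98 on the iPS arrays. It rose in both steps (0.65 ± 0.08 and 0.45 ± 0.08) and stood over 2-fold above fibroblasts in iPS (1.11 ± 0.08; adjusted p = 2.52e-07). Cox5b, another matrix-side subunit, and Cox4i1, the partner of Cox5a in early assembly, rose in TSKM-3D by 0.31 and 0.22. Cox4i1 read 10.54, 10.51 and 10.40 on the fibroblast arrays, 10.72, 10.70 and 10.67 on the TSKM-3D arrays and 10.61, 10.61 and 10.61 on the iPS arrays. Its fibroblast arrays were lowest, without overlap. The call of Cox4i1 (adjusted p = 0.0265) was lost with array medians set equal (adjusted p = 0.144) and without fibroblast replicate 2 or 3 or TSKM-3D replicate 1. Cox4i2, the isoform of lung and low oxygen, read 6.67, 6.66 and 6.72 on the fibroblast arrays, 6.49, 6.77 and 6.18 on the TSKM-3D arrays and 6.98, 6.69 and 6.82 on the iPS arrays. It differed by -0.20 ± 0.13 in TSKM-3D (adjusted p = 0.241) and by 0.35 ± 0.13 in iPS against TSKM-3D (adjusted p = 0.0496), with overlapping arrays in both, and the second did not pass in 13 of the alternatives, among them the block (adjusted p = 0.0604).

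Of the 4 falls of complex IV in TSKM-3D, 3 were in small membrane subunits. Cox7b read 11.71, 11.77 and 11.80 on the fibroblast arrays, 10.44, 10.27 and 10.61 on the TSKM-3D arrays and 10.69, 10.57 and 10.61 on the iPS arrays. All its fibroblast arrays were above all others (-1.32 ± 0.09 in TSKM-3D, adjusted p = 3.17e-07; -1.14 ± 0.09 in iPS against fibroblasts). Cox8a read 11.17, 11.17 and 11.13 on the fibroblast arrays, 10.24, 10.34 and 10.24 on the TSKM-3D arrays and 10.81, 10.80 and 10.78 on the iPS arrays. It was lowest on the TSKM-3D arrays (-0.88 ± 0.07; adjusted p = 8.91e-07) and rose in iPS against TSKM-3D (0.52 ± 0.07; adjusted p = 5.35e-05), with no overlap. Cox6c read 12.41, 12.48 and 12.52 on the fibroblast arrays, 11.89, 11.82 and 11.83 on the TSKM-3D arrays and 11.83, 11.75 and 11.86 on the iPS arrays. Cox6c fell in TSKM-3D (-0.62 ± 0.07) and differed by -0.03 ± 0.07 in iPS against TSKM-3D (adjusted p = 0.776). The testis isoforms Cox7b2 and Cox8c and the muscle isoform Cox8b had means under 6 in every group. In TSKM-3D, Cox7b2 differed by 0.11 ± 0.10, Cox8c by 0.17 ± 0.18 and Cox8b by 0.02 ± 0.08, and they passed in no comparison. Cox7b2 read 3.55 to 3.97, Cox8b 5.44 to 5.66 and Cox8c 5.40 to 6.27 over the 9 arrays.

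The Cox6a, Cox6b and Cox7a families each pair a common gene with a restricted one, and in the last 2 the restricted gene moved by over 2-fold. Cox6b2, known as the testis isoform of the subunit that bridges the monomers of complex IV, read 6.05, 5.92 and 5.66 on the fibroblast arrays, 7.74, 7.97 and 7.82 on the TSKM-3D arrays and 8.21, 7.95 and 7.92 on the iPS arrays. Its log2 difference was 1.97 ± 0.12 in TSKM-3D against fibroblasts (adjusted p = 1.01e-07) and 2.15 ± 0.12 in iPS against fibroblasts (adjusted p = 1.67e-08). The fibroblast values lie near or below the array medians, 6.01 to 6.23, and calls of signal over background were not used here, so the size of this change is uncertain. Cox6b1, the common isoform, read 11.19, 11.16 and 11.07 on the fibroblast arrays, 10.11, 10.33 and 10.20 on the TSKM-3D arrays and 10.85, 10.60 and 10.75 on the iPS arrays. Cox6b1 fell in TSKM-3D (-0.93 ± 0.09; adjusted p = 4.67e-06) and was in between in iPS (0.52 ± 0.09 against TSKM-3D), with no overlap among the groups. The family thus held a rise and a fall on the same arrays.

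In the Cox7a family the restricted gene rose at the iPS stage. Cox7a1, the heart and skeletal muscle isoform, read 6.48, 6.56 and 6.38 on the fibroblast arrays, 6.70, 6.53 and 6.54 on the TSKM-3D arrays and 8.94, 8.68 and 8.96 on the iPS arrays. Its TSKM-3D and fibroblast arrays overlapped (0.12 ± 0.10; adjusted p = 0.352), and it was 4.81-fold higher in iPS than in TSKM-3D (2.27 ± 0.10; adjusted p = 3.7e-09), the largest change of any member in that comparison. The common Cox7a2 read 10.04, 10.19 and 10.06 on the fibroblast arrays, 10.30, 10.23 and 10.25 on the TSKM-3D arrays and 10.31, 10.37 and 10.32 on the iPS arrays. It differed by 0.16 ± 0.07 in TSKM-3D (adjusted p = 0.0993) and by 0.07 ± 0.07 in iPS against TSKM-3D (adjusted p = 0.463), and by 0.23 ± 0.07 in iPS against fibroblasts (adjusted p = 0.017). With array medians set equal the last of these was 0.0636 (adjusted p = 0.576), and it did not pass without fibroblast replicate 1 or 3 or iPS replicate 2. Cox7a2l read 8.75, 8.71 and 8.58 on the fibroblast arrays, 9.59, 9.68 and 9.83 on the TSKM-3D arrays and 9.97, 9.66 and 9.51 on the iPS arrays. Cox7a2l rose in TSKM-3D (1.02 ± 0.12; adjusted p = 2.08e-05) and stood 1.03 ± 0.12 above fibroblasts in iPS. Beside Cox7a1, 2 of 6 skeletal muscle markers rose in iPS against TSKM-3D: the fast light chain Mylpf by 2.94 ± 0.13 and Myh3 by 0.45 ± 0.14. Myog, Acta1, Ckm and Tnnt3 differed by 0.08, 0.05, 0.07 and 0.22 and did not pass. In iPS against fibroblasts, where Cox7a1 differed by 2.38 ± 0.10, 5 of the 6 rose, with Mylpf at 3.18 ± 0.13 and a list median of 0.47, and Acta1 fell (-1.03 ± 0.08). The part of muscle-like cells was not tested. In the Cox6a family, the common Cox6a1 read 10.68, 10.64 and 10.57 on the fibroblast arrays, 10.70, 10.63 and 10.74 on the TSKM-3D arrays and 10.99, 10.88 and 10.89 on the iPS arrays. It rose in iPS against TSKM-3D (0.23 ± 0.07; adjusted p = 0.0245), a call that was lost with array medians set equal (0.11, adjusted p = 0.334) and without TSKM-3D replicate 1 or 2 or iPS replicate 1. The muscle isoform Cox6a2 read 7.10, 7.09 and 7.09 on the fibroblast arrays, 7.21, 7.09 and 6.72 on the TSKM-3D arrays and 7.09, 6.86 and 6.82 on the iPS arrays. It passed in no comparison.

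The promoters of the Cox6b and Cox7a pairs are shown because in each pair 1 isoform passed 2-fold and the other did not, and because the windows differ in CG pairs, the sequence that DNA methylation acts on. Each window runs from 250 bases before to 50 bases after the RefSeq start in GRCm38.p6, 5′ to 3′ on the gene's strand, with CG pairs in capitals. Cox6b2 lies at chr7:4753045-4753344 (- strand) and holds 10 CG pairs, and Cox6b1 at chr7:30626065-30626364 (- strand) with 17. Cox7a1 lies at chr7:30183921-30184220 (+ strand) and holds 7, and Cox7a2 at chr9:79759804-79760103 (- strand) with 20.
Cox6b2: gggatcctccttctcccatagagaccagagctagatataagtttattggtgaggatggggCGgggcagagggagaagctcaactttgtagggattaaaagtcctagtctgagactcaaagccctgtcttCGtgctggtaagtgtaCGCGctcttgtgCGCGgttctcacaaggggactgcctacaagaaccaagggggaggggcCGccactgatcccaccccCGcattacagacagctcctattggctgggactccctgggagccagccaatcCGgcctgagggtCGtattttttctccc
Cox6b1: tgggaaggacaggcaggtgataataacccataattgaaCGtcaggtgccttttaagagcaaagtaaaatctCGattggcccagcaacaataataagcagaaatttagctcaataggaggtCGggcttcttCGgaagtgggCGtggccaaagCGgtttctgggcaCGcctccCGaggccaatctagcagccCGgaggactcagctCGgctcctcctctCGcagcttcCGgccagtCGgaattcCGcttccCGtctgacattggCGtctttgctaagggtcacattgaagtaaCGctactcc
Cox7a1: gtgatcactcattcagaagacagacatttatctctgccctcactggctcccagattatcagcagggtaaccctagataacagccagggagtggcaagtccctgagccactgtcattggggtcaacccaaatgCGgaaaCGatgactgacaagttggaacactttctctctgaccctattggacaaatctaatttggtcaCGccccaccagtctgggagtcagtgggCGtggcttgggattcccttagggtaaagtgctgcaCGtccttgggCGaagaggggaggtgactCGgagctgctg
Cox7a2: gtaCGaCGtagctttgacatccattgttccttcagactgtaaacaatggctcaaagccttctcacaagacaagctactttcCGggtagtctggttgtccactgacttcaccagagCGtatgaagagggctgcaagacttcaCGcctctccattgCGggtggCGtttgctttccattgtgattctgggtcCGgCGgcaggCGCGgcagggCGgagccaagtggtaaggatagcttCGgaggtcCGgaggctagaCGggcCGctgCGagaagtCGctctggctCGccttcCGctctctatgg
The median was 20 CG pairs over the OXPHOS windows and 7 over all windows of the reference. Both restricted genes thus lay below the OXPHOS median, as did Cox7b2 with 10 and Cox8b with 2. Many common genes lay below it as well, among them Cox6b1, Cox7b and Cox8a with 17, 5 and 19. In complex I these included Ndufc2, Ndufa3 and Ndufs4 with 8, 11 and 12. Methylation was not analysed here.

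In complex V the catalytic head and the c ring were each divided. Of 17 genes, 6 rose, 5 fell and 6 did neither in TSKM-3D, where 19.2% of all genes rose and 25.3% fell. In the F1 head, Atp5a1 and Atp5c1, the alpha and gamma subunits, rose and Atp5d, the delta subunit, fell. Atp5a1 read 11.85, 11.80 and 11.83 on the fibroblast arrays, 12.63, 12.64 and 12.67 on the TSKM-3D arrays and 12.72, 12.68 and 12.75 on the iPS arrays. For Atp5c1 the values were 11.24, 11.29 and 11.40 on the fibroblast arrays, 12.17, 12.14 and 12.16 on the TSKM-3D arrays and 12.32, 12.11 and 12.17 on the iPS arrays. Both were above the fibroblast arrays on every TSKM-3D array (0.82 ± 0.07 and 0.85 ± 0.08) and on every iPS array (0.89 ± 0.07 and 0.89 ± 0.08). Atp5d read 12.64, 12.75 and 12.76 on the fibroblast arrays, 11.96, 11.93 and 12.01 on the TSKM-3D arrays and 11.55, 11.63 and 11.56 on the iPS arrays. Atp5d fell in both steps (-0.75 ± 0.07 and -0.39 ± 0.07) to -1.14 ± 0.07 in iPS against fibroblasts (adjusted p = 6.1e-08), without overlap. The catalytic beta subunit Atp5b and the epsilon subunit Atp5e differed by 0.09 ± 0.08 and -0.11 ± 0.07 in TSKM-3D, and neither passed.

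The c ring, which turns as protons pass, is encoded by a trio of nuclear genes whose mature proteins are the same and whose import peptides differ. Atp5g1 had the largest fall of all members and read 11.68, 11.74 and 11.68 on the fibroblast arrays, 9.48, 9.73 and 9.46 on the TSKM-3D arrays and 10.32, 10.04 and 10.07 on the iPS arrays. It was 4.41-fold lower in TSKM-3D than in fibroblasts (log2 difference -2.14 ± 0.10; adjusted p = 1.8e-08), higher in iPS than in TSKM-3D (0.58 ± 0.10; adjusted p = 0.000431), and still 2.94-fold lower in iPS than in fibroblasts. A second row with the same symbol, of mean 6.07, differed by -0.35 in TSKM-3D (adjusted p = 0.292 over all rows). Atp5g2 read 11.87, 11.91 and 11.91 on the fibroblast arrays, 11.28, 11.37 and 11.35 on the TSKM-3D arrays and 11.65, 11.55 and 11.55 on the iPS arrays. Atp5g2 fell in TSKM-3D (-0.56 ± 0.07; adjusted p = 4.33e-05), and its value in iPS against fibroblasts, -0.31 ± 0.07, turned to 0.05 (adjusted p = 0.671) when its 3 rows were averaged. Atp5g3 read 11.03, 11.06 and 10.99 on the fibroblast arrays, 11.40, 11.49 and 11.39 on the TSKM-3D arrays and 11.67, 11.44 and 11.48 on the iPS arrays. Atp5g3 rose in TSKM-3D (0.40 ± 0.08; adjusted p = 0.00146) and stayed above fibroblasts in iPS (0.50 ± 0.08; adjusted p = 0.00019). Genes for the same protein thus moved in opposite directions, each without overlap between TSKM-3D and fibroblast arrays.

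The promoters of the c subunit genes are shown because these genes moved in different directions. The windows are as above, and capitals mark matches on either strand to the core motif of NRF1 (GCGCATGC), the ERR receptors (TCAAGGTCA) or the E-box bound by MYC (CACGTG). ETS (CCGGAAGT) and YY1 (ATGGCGGC) were searched too and had no match in these windows. Atp5g1 lies at chr11:96075582-96075881 (- strand), Atp5g2 at chr15:102670998-102671297 (- strand) and Atp5g3 at chr2:73911277-73911576 (- strand).
Atp5g1: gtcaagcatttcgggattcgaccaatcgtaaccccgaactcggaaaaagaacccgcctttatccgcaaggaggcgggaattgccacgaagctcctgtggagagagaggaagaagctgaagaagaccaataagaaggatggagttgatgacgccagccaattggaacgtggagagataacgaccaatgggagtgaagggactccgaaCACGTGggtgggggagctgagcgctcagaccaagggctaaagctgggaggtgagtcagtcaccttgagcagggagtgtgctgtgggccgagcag
Atp5g2: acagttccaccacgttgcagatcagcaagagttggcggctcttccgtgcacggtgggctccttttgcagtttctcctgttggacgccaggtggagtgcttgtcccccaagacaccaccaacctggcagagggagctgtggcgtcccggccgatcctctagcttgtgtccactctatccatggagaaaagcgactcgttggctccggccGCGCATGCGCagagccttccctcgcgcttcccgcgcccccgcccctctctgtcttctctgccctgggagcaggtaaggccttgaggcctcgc
Atp5g3: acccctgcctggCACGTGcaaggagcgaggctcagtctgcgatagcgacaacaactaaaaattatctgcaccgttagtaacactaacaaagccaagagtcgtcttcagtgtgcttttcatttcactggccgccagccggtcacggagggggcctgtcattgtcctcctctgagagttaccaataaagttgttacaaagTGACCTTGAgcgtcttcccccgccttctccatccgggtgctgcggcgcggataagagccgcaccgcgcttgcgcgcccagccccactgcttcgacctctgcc
The Atp5g1 window holds an E-box that begins 44 bases before the start. The Atp5g2 window holds overlapping NRF1 matches, one on each strand, beginning 42 and 40 bases before the start. The Atp5g3 window holds an ERR match, read on the opposite strand, at 52 bases and an E-box at 238 bases before the start. An E-box match was present in 7.79% of the 77 OXPHOS genes with a window, against 8.09% of the 27025 genes in the reference table. NRF1 was matched in 15.6% of the OXPHOS genes, against 3.05% of all genes. For ETS the shares were 6.49% of the OXPHOS genes, against 4.31% of all genes, for YY1 9.09% against 2.6%, and for ERR 2.6% against 0.466%. Any of NRF1, ETS or YY1 was matched in 29.9% of the OXPHOS genes, against 9.22% of all genes. Overlapping matches in 1 window count once. By direction in TSKM-3D the share was 24% of the 25 genes that rose, 33.3% of the 27 that fell and 32% of the 25 that did neither. All of these motifs but that of ERR contain a CG pair. The OXPHOS windows held a median of 20 CG pairs and 58.5% G and C, against 7 and 52.7% over all windows. The part of base composition in these shares was not tested. A match describes letters in a window, and binding was not analysed here.

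The remaining complex V genes form the stalk and the membrane part. Atp5mpl, a small proteolipid of the membrane part, read 9.79, 10.01 and 10.01 on the fibroblast arrays, 10.9995, 11.14 and 10.89 on the TSKM-3D arrays and 10.40, 10.40 and 10.52 on the iPS arrays. It rose over 2-fold in TSKM-3D (1.07 ± 0.09; adjusted p = 2.03e-06) and fell in iPS against TSKM-3D (-0.56 ± 0.09; adjusted p = 0.000299), the largest fall of the complex in that comparison, with iPS arrays in between. Atp5md, another small membrane subunit that helps the enzyme form dimers, read 11.73, 12.04 and 12.03 on the fibroblast arrays, 11.10, 10.59 and 11.17 on the TSKM-3D arrays and 11.25, 11.17 and 11.35 on the iPS arrays. Atp5md fell in TSKM-3D (-0.98 ± 0.15; adjusted p = 0.000159), and its other 2 rows differed by -0.92 and -1.02. Atp5k, the e subunit of the dimer contact, read 8.22, 8.15 and 8.02 on the fibroblast arrays, 8.65, 9.04 and 8.69 on the TSKM-3D arrays and 9.40, 8.95 and 8.84 on the iPS arrays. Atp5k rose in TSKM-3D (0.66 ± 0.15; adjusted p = 0.00299) and had the largest rise of the complex in iPS against fibroblasts (0.93 ± 0.15; adjusted p = 0.00017). In the stalk Atp5pb rose (0.43 ± 0.09), Atp5j fell (-0.27 ± 0.07; not passing under quantile normalization, -0.16 with adjusted p = 0.107), and Atp5h and Atp5o differed by 0.25 ± 0.10 and -0.10 ± 0.08 without passing. Atp5l and Atp5j2 did not pass in TSKM-3D (0.17 ± 0.17 and -0.04 ± 0.08), and 2 of the 4 other Atp5l rows did, at 0.77 and 0.66 (adjusted p = 0.0106 and 0.00191 over all rows).

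Array rows of OXPHOS genes call for care, since many of these genes have processed copies in the genome and probe sequences were not used here. For 18 members several rows carried the symbol alone. All rows of Atp5md, Cox5b, Cox6c, Cox7a2l, Cox7b, Ndufa11, Ndufb11 and Uqcr11 agreed in direction in TSKM-3D, each passing at an adjusted p over all rows. The sizes differed between rows. Cox7a2l, Cox7b, Ndufb11 and Uqcr11 were past 2-fold on the row used but short of it on the other (0.81, -0.93, -0.68 and -0.93). Ndufa11 and Atp5md were short of 2-fold on the row used and past it on a further row (-1.11 and -1.02). For other called members the further rows did not pass: those of Uqcrb and Atp5g1 are given above, that of Atp5pb differed by 0.01 (adjusted p = 0.91) and that of Ndufab1 by 0.26 (adjusted p = 0.581). The further rows of Atp5g2 differed by -0.46, which did not pass (adjusted p = 0.0821), and by -0.43, which did (adjusted p = 0.0226). Rows that passed differed in sign in TSKM-3D for Ndufs3 alone.

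The other genes of mitochondrial energy supply were counted by list, to be read beside the shares over all genes: 19.2% higher and 25.3% lower in TSKM-3D, 22.3% and 23.2% in iPS against TSKM-3D, and 25.5% and 29.1% in iPS against fibroblasts. The lists were chosen with earlier results known and were not tested. Of 18 measured genes of pyruvate oxidation and the citric acid cycle, which feed the chain with NADH and succinate, 11 rose and 1 fell in TSKM-3D, with a median difference of 0.48. The NADH-yielding pyruvate dehydrogenase subunits Pdha1 and Pdhb rose by 1.57 ± 0.07 and 1.15 ± 0.10, and Suclg2, Dld and Suclg1 by 1.26, 1.06 and 1.02. Pdha1 read 10.38, 10.35 and 10.37 on the fibroblast arrays, 11.999, 11.88 and 11.93 on the TSKM-3D arrays and 11.48, 11.49 and 11.48 on the iPS arrays. Its TSKM-3D arrays were the highest and its fibroblast arrays the lowest. In iPS against TSKM-3D, 2 genes of this list rose and 9 fell, Dlst, a subunit of the oxoglutarate dehydrogenase complex, by over 2-fold (-1.18 ± 0.10). The comparisons share the TSKM-3D arrays, so a high TSKM-3D reading enters both. In iPS against fibroblasts 8 rose and 6 fell, with Pdhb at 1.54, Suclg1 at 1.14, Pdhx at 1.13, Pdha1 at 1.12 and Dlst at -1.07 past 2-fold.

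A mixed list of electron carriers, of dehydrogenases that feed ubiquinone, of Cyc1 and of Atpif1, the inhibitor protein of the ATP synthase, gave 4 rises and 3 falls among 9 genes in TSKM-3D. The rises were Etfa, Etfdh, Gpd2 and Dhodh, and the falls were Cycs, Cyc1 and Atpif1 (-0.24). Etfa and Etfdh, which bring electrons from fatty acid oxidation, rose over 2-fold (1.53 ± 0.11 and 1.52 ± 0.09) and fell in iPS against TSKM-3D (-0.53 and -1.09). Etfdh read 8.94, 8.78 and 8.81 on the fibroblast arrays, 10.40, 10.20 and 10.49 on the TSKM-3D arrays and 9.21, 9.31 and 9.29 on the iPS arrays. The TSKM-3D arrays stood above both other groups. Cycs, the somatic cytochrome c, fell in TSKM-3D (-0.80 ± 0.10), and Cyct, the testis form, rose in iPS against TSKM-3D (1.23 ± 0.11) at dim levels of 4.14 to 5.71 over the 9 arrays. Etfb, the partner of Etfa, fell by over 2-fold there (-1.02 ± 0.08). In all, 3 of these genes rose and 3 fell in iPS against TSKM-3D, and 6 rose and 3 fell in iPS against fibroblasts.

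Assembly factors outside the prefixes held 13 rises and 13 falls among 35 genes in TSKM-3D. Uqcc2, needed for complex III, read 10.81, 10.75 and 10.68 on the fibroblast arrays, 6.85, 7.34 and 7.24 on the TSKM-3D arrays and 7.38, 7.46 and 7.53 on the iPS arrays. Uqcc2 was 12.1-fold lower in TSKM-3D than in fibroblasts (-3.60 ± 0.12) and differed by -3.29 ± 0.12 in iPS against fibroblasts. Its fibroblast arrays were far above all others. Uqcc3, another complex III factor, read 6.51, 6.57 and 6.67 on the fibroblast arrays, 8.17, 7.82 and 8.05 on the TSKM-3D arrays and 9.05, 8.60 and 8.63 on the iPS arrays. It rose in both steps (1.43 ± 0.13 and 0.75 ± 0.13). Cox17, the copper chaperone of complex IV, read 6.23, 6.10 and 6.11 on the fibroblast arrays, 8.47, 8.34 and 8.46 on the TSKM-3D arrays and 8.83, 8.52 and 8.84 on the iPS arrays. Cox17 rose in TSKM-3D (2.27 ± 0.10) and stood at 2.58 ± 0.10 in iPS against fibroblasts. Tmem70, a factor of complex V, read 8.72, 8.61 and 8.72 on the fibroblast arrays, 10.49, 10.11 and 10.57 on the TSKM-3D arrays and 8.32, 8.05 and 8.02 on the iPS arrays. Tmem70 rose in TSKM-3D (1.71 ± 0.12), fell in iPS against TSKM-3D (-2.26 ± 0.12) and lay below fibroblasts in iPS (-0.55 ± 0.12). Acad9 and Lrpprc also rose over 2-fold in TSKM-3D (1.17 and 1.03), and Timmdc1, Cox11 and Cox20 fell (-1.12, -1.13 and -1.16). The list had 10 rises and 8 falls in iPS against TSKM-3D, with Coa7 at 1.25. It had 12 and 13 in iPS against fibroblasts, where Sco1, a copper protein of complex IV, reached 1.40, Cox19 -1.06, Timmdc1 -1.96, Cox20 -1.44 and Lrpprc 1.26.

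The mitochondrial ribosome, which makes the subunits encoded by mitochondrial DNA, gave 26 rises and 30 falls among 77 genes in TSKM-3D. Past 2-fold in TSKM-3D were Mrps26 at 2.08, Mrpl44 at 1.36, Mrpl24 at 1.34, Mrpl18 at 1.27, Mrpl41 at 1.21 and Mrpl45 at 1.03 upwards. Downwards they were Mrpl40 at -1.49, Mrps21 at -1.42, Mrpl42 at -1.25, Mrpl34 at -1.23, Mrps11 at -1.17, Mrpl57 at -1.10 and Mrpl54 at -1.03. In iPS against TSKM-3D the list gave 35 rises and 8 falls, with a median difference of 0.23 beside -0.01 over all genes, and Mrps18b (1.34), Mrpl40 (1.29) and Mrpl47 (1.03) passed 2-fold. In iPS against fibroblasts 35 rose and 17 fell. Mrpl44 (2.26), Mrpl18 (2.18), Mrps26 (1.99), Mrpl24 (1.80), Mrpl2 (1.58), Mrpl45 (1.34), Mrpl47 (1.28) and Mrps31 (1.27) led the rises. Mrps21 (-2.28), Mrps6 (-1.53), Mrpl54 (-1.42), Mrpl57 (-1.36), Mrpl33 (-1.21), Mrpl34 (-1.15) and Mrpl14 (-1.08) led the falls. Most of these ribosomal genes kept to smaller changes, and both directions occurred in both subunits of the ribosome.

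Among 17 measured regulators of mitochondrial genes, 4 rose and 3 fell in TSKM-3D, 7 rose and 6 fell in iPS against TSKM-3D, and 8 rose and 4 fell in iPS against fibroblasts. Myc, one of the introduced factors, rose in TSKM-3D and fell in iPS against TSKM-3D (-2.42 ± 0.08), and Hif1a, the oxygen-sensing factor, fell in TSKM-3D (-1.58 ± 0.09) and in iPS against TSKM-3D (-0.32 ± 0.09). Hif1a read 11.66, 11.70 and 11.67 on the fibroblast arrays, 10.16, 9.91 and 10.21 on the TSKM-3D arrays and 9.77, 9.82 and 9.73 on the iPS arrays. Its fibroblast arrays were above all others. Esrra, an oestrogen-related receptor, rose in TSKM-3D (0.85 ± 0.09), and its pluripotent-cell relative Esrrb rose in iPS against TSKM-3D (5.54 ± 0.13). Nrf1, the factor of the motif above, read 7.76, 7.72 and 7.61 on the fibroblast arrays, 7.65, 7.46 and 7.58 on the TSKM-3D arrays and 8.77, 8.57 and 8.63 on the iPS arrays. It rose in iPS against TSKM-3D (1.09 ± 0.09). Tfam, which packs and transcribes mitochondrial DNA, read 6.93, 6.95 and 7.10 on the fibroblast arrays, 8.11, 7.32 and 8.38 on the TSKM-3D arrays and 8.53, 8.64 and 8.90 on the iPS arrays. It rose in both steps (0.94 ± 0.21 and 0.75 ± 0.21), and TSKM-3D replicate 2 lay below the other arrays of its group. In iPS against fibroblasts the coactivator gene Pprc1 and the mitochondrial transcription factor gene Tfb2m also passed 2-fold (1.04 and -1.04).

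Glycolytic and fuel-switch genes, read for comparison, gave 7 rises and 8 falls among 21 in TSKM-3D, 10 and 3 in iPS against TSKM-3D, and 8 and 7 in iPS against fibroblasts. Ndufa4l2 belongs to this list as well. The glucose transporter gene Slc2a3 read 7.30, 7.06 and 7.11 on the fibroblast arrays, 9.60, 9.59 and 9.66 on the TSKM-3D arrays and 13.004, 12.97 and 12.92 on the iPS arrays. It rose in both steps (2.46 ± 0.08 and 3.35 ± 0.08), as did the hexokinase gene Hk2 (1.57 ± 0.08 and 1.34 ± 0.08). Pdk4 and Pdk2, kinases that hold back pyruvate dehydrogenase, fell in TSKM-3D (-1.72 ± 0.08 and -1.17 ± 0.13), Pdk1 and Pdk3 rose (0.58 and 0.92), and Pdk3 fell in iPS against TSKM-3D (-2.17 ± 0.13). Slc16a3, a lactate exporter, and the glucose transporter gene Slc2a1 fell in TSKM-3D (-1.48 ± 0.08 and -1.09 ± 0.08), and the phosphofructokinase gene Pfkp rose (1.23 ± 0.08). In iPS against fibroblasts the lactate transporter gene Slc16a1 was higher by 1.42 ± 0.08.

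**Figure D4:**
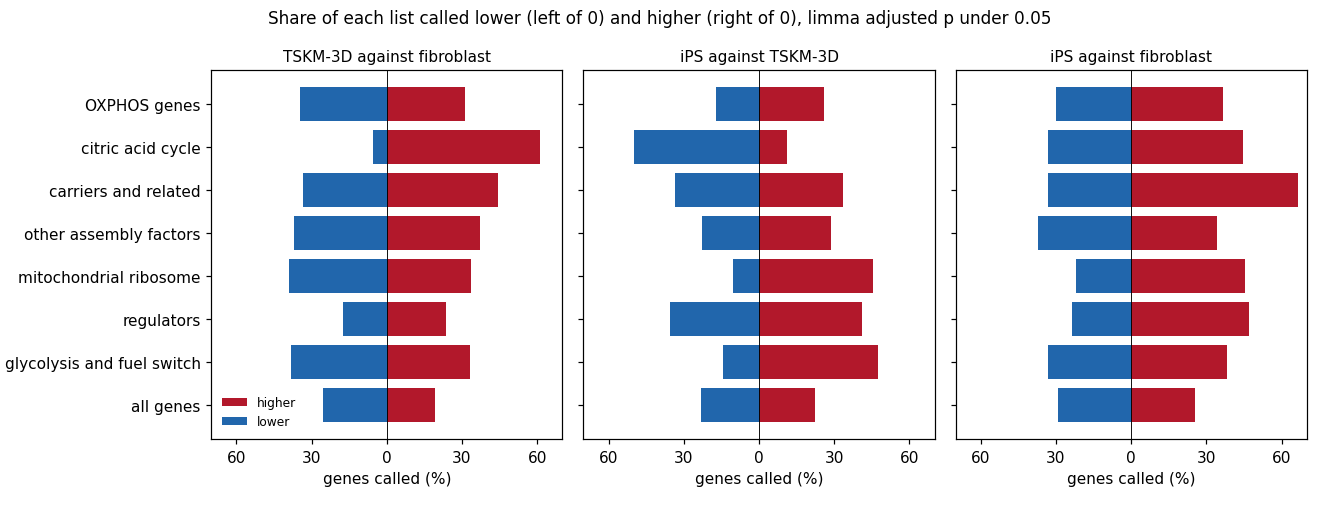
Share of genes called lower (left, blue) and higher (right, red) by limma at an adjusted p under 0.05, for the OXPHOS genes, 6 lists of related genes and all genes, in the 3 comparisons. In TSKM-3D against fibroblasts the OXPHOS bars are near even (29 higher, 32 lower), while the citric acid cycle has 11 higher and 1 lower of 18.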

How the data were processed

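Expression was measured on 9 one-colour mouse arrays, 3 each of fibroblast, TSKM-3D and iPS cells. The deposited table holds log2 values for 34760 array rows, and from the values they are already on a log2 scale and similar in level between arrays (medians 6.01 to 6.23). The normalization behind them is not given in the sources used here. Gene names came from the probe table of the platform: 21640 rows have 1 gene symbol, 1321 have several and 11799 are not listed. Each of the 19937 genes was read from the row with its symbol alone and the highest mean over the arrays, and all 93 members were found by identifier in the RefSeq GRCm38.p6 table, with 0 symbols that differ. Promoter windows came from RefSeq GRCm38.p6 and were found for 77 members.

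limma 3.58.1 (R 4.3.3; lmFit and eBayes) was run on the log2 values of all 9 arrays in 1 model, with p-values adjusted by Benjamini and Hochberg over all 19937 genes and a threshold of 0.05. The scripts were tested on simulated data. The number of arrays limits the precision: with 3 against 3, an exact permutation test of 1 gene could not go below p = 0.1, so the tests lean on a spread estimated over all genes. Errors are standard errors of the model. Bars are 1 standard error in the plot of differences and SD in the plots of array values. Alternatives were quantile normalization, array medians set equal, the mean of all rows of a gene, a filter on dim genes (highest group mean under 6), array quality weights, a mean trend with robust estimation, adjustment over all rows, the third fibroblast array placed with TSKM-3D, a replicate block, and each array left out.

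The members and the lists of related genes were chosen with earlier results of these data known, so no test was made of a list as a whole. Named with all array values are members past the threshold and 2-fold, those with the largest changes of each complex, the Sdh subunits and the isoform families. Of the related lists, genes past 2-fold are named, most by their difference only. Replicate numbers did not pair the arrays: deviations from the group means of same-numbered arrays correlated between -0.098 and 0.062.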

Additional observations from a re-analysis of the deposited data

How the results depend on the processing

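The largest dependence was on the third fibroblast array. Placed with TSKM-3D, as its cell type label reads, it left 0 members higher and 0 lower in TSKM-3D, also at 2-fold. It left 8 higher, 7 lower and 1 higher by 2-fold in iPS against TSKM-3D, and 17 higher and 15 lower in iPS against fibroblasts. The counts over all genes were 0 higher and 0 lower in TSKM-3D. They were 3112 and 3418 in iPS against TSKM-3D, and 3341 and 4297 in iPS against fibroblasts. The medians of complex IV in TSKM-3D and of complex I in iPS against TSKM-3D were then 0.0181 and -0.0242, and Ndufa4 turned to 0.0271 (adjusted p = 0.975) in iPS against TSKM-3D. That model puts an array that correlated at 0.998 with the fibroblast arrays into the TSKM-3D group. The part of this in the lost calls was not tested. With array medians set equal, complexes IV and V had medians of 0.0618 and 0.0407 in TSKM-3D. In iPS against TSKM-3D, 15 members were then higher, 26 lower and 1 higher by 2-fold. The counts over all genes were 3548 higher and 6447 lower. The median was -0.14 over all members, and -0.24, -0.14, -0.0466, -0.0428 and -0.016 for complexes I to V. In iPS against fibroblasts 19 members were higher, as were 3512 of all genes. The medians there were -0.13 over all members and -0.13, -0.40, -0.29, -0.024 and 0.0298 for complexes I to V. Under quantile normalization the medians of complexes II and III in TSKM-3D were 0.053 and -0.22, that of complex V in iPS against TSKM-3D was 0.0343, and those of complexes II to V in iPS against fibroblasts were -0.0841, -0.00907, 0.0853 and 0.28. Averaging all rows of a gene gave complex III a median of -0.21 in TSKM-3D, and turned Ndufs3 in TSKM-3D to -0.0697 (adjusted p = 0.52) and Atp5g2 in iPS against fibroblasts to 0.0485 (adjusted p = 0.671). Array quality weights gave complex V a median of 0.0349 in TSKM-3D, complex II one of 0.0661 in iPS against TSKM-3D, and 26 members lower there. Over all genes 6034 were lower in that comparison with the weights, beside 4635 in the main fit. The filter on dim genes gave complex IV a median of 0.18 in iPS against TSKM-3D. The cause of these shifts was not tested. Leaving out 1 array at a time gave 27 to 32 members higher and 30 to 35 lower in TSKM-3D, 17 to 25 and 13 to 19 in iPS against TSKM-3D, and 27 to 35 and 25 to 30 in iPS against fibroblasts. At 2-fold the ranges were 5 to 6 and 7 to 9, 1 to 3 and 0, and 6 to 8 and 8 to 9. Medians without 1 array ran from -0.116 to 0.0151 for complex II, 0.0146 to 0.143 for complex IV and 0.0166 to 0.137 for complex V in TSKM-3D. They ran from -0.114 to 0.0201, 0.0739 to 0.135 and 0.0600 to 0.102 for the same complexes in iPS against TSKM-3D, and from 0.130 to 0.203 for complex IV and 0.159 to 0.220 for complex V in iPS against fibroblasts. With a replicate block, 30 members were higher and 32 lower in TSKM-3D, 22 and 15 in iPS against TSKM-3D, and 31 and 27 in iPS against fibroblasts. Over all genes the block gave 3763 and 5006, 4412 and 4556, and 5019 and 5754. Same-numbered arrays did not deviate together, so the numbers do not show a pairing. All 163 single calls of members held with array quality weights. With the third fibroblast array placed with TSKM-3D, 116 of them were lost, including 1 that changed sign. Losses were 26 with array medians set equal, 11 under quantile normalization, 10 with adjustment over all rows and 8 with the block. They were 9 with averaged rows, including the 2 that changed sign, and 2 to 17 without any 1 array.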

Other observations

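Further OXPHOS subunits sit on array rows that carry several symbols, which kept them out of the 93 members. Cox7c, a small subunit of complex IV, shares its 3 rows with the pseudogene-like symbol Gm12338, and all 3 read lower in TSKM-3D than in fibroblasts. The brightest of these rows read 10.81, 10.78 and 10.87 on the TSKM-3D arrays, against 12.30, 12.49 and 12.50 on the fibroblast arrays (log2 difference -1.61 ± 0.09 SE; limma adjusted p = 1.66e-06 over all rows), and the others differed by -1.65 and -2.94. In iPS against TSKM-3D the brightest row was higher by 0.71 ± 0.09 (adjusted p = 0.000171). Ndufb4, an accessory subunit of complex I, shares its rows with Ndufb4b. The brighter row read 9.50, 9.45 and 9.71 on the TSKM-3D arrays, against 11.32, 11.39 and 11.33 on the fibroblast arrays (-1.79 ± 0.10; adjusted p = 1.65e-06 over all rows), and the dimmer row differed by -2.42. Which of the named copies these rows measured was not tested. A row of Ndufs5 and Ndufs5-ps was higher by 0.67 ± 0.10 in TSKM-3D (adjusted p = 0.000795 over all rows), beside 0.60 for the row of Ndufs5 alone.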
